A study of Mus musculus with 24 samples.

Results

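The 9 genes described here encode the tyrosine kinase PTK6 and 8 kinases related to it or to its regulation: *Frk* and *Srms*, *Src*, *Yes1*, *Fyn*, *Lyn*, *Fgr* and *Csk*. They were chosen by gene name, and each name was found once among the 56691 genes of the deposited count table, so all 9 of the 9 were measured. RNA came from the distal jejunum of 24 mice, 3 in each of 8 groups set by sex, genotype and treatment. Wild type and *Ptk6*-/- mice drank regular water (the controls) or 100 mM succinate for 7 days, and experiments ended at 9 to 11 weeks of age. *Ptk6*-/- is a germline knockout, so no cell type of these mice carries an intact gene, and all mice shared the C57BL/6 background. The study's methods describe age-matched animals from different litters of 1 colony. The comparisons asked how the loss of *Ptk6* and a week of succinate, a metabolite that tuft cells sense, changed these kinases in males and in females.

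PTK6, FRK and SRMS form a small family of intracellular tyrosine kinases that resemble SRC in their SH3, SH2 and kinase domains. PTK6 is found mainly in epithelial linings, where it acts on differentiation, survival and repair of the intestinal epithelium. SRC, YES and FYN are made in most tissues, whereas LYN and FGR are best known from blood cells. Kinases of the SRC family are held inactive when a tyrosine near their C terminus is phosphorylated, and CSK is the enzyme that does this.

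Total counts per library ran from 8080321 to 52824743, with a median of 43017686.5. All 8 epithelial markers were counted in every library, with a summed level of 7791 to 18590 CPM. CPM here means counts scaled to a common library total after TMM normalisation (a scaling that corrects for unequal composition of libraries). Of the libraries, 3 stood apart by ribosomal RNA or by transcripts foreign to their labels and are called the libraries in doubt. Replicate 1 of the wild type control males and replicate 1 of the *Ptk6*-/- succinate males carried 51.22% and 29.71% of their counts on *Rn18s-rs5*, an 18S ribosomal RNA gene, against 0.1085% to 4.486% in the other libraries. Replicate 2 of the wild type succinate females held 22210 CPM of 8 heart muscle markers, against at most 235.1 CPM elsewhere, and 74.31 CPM of 4 Y-linked genes, against at most 0.9713 CPM in the other female libraries. The main results that rest on these libraries are given with and without them. Further libraries stood apart by smaller marker sums. The 6 lung markers summed to 7.554 to 19.34 CPM in all 6 *Ptk6*-/- females and to 17.85 CPM in replicate 3 of the wild type succinate females, against at most 4.152 CPM elsewhere. Replicate 2 of the *Ptk6*-/- succinate females held 845.3 CPM of 6 mast cell markers, against at most 149.5 CPM elsewhere. Nothing in the labels ties 2 libraries to 1 mouse, p-values measure the spread between these mice of 1 colony, and no pair of replicates agreed within counting error.

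Positions are those of the deposited table, in the build GRCm39 that the submitters' processing notes name, and the table lists protein coding transcripts for all 9 genes. *Ptk6* (ENSMUSG00000038751) lies on the minus strand at chr2:180835514-180844582. *Srms* (ENSMUSG00000027579) is its neighbour on the same strand at chr2:180847355-180854978, with 2772 bases between the genes. *Frk* (ENSMUSG00000019779) lies at chr10:34359395-34487274 and *Fyn* (ENSMUSG00000019843) at chr10:39244851-39441377, both on the plus strand. *Src* (ENSMUSG00000027646) lies at chr2:157260364-157313758, *Yes1* (ENSMUSG00000014932) at chr5:32768515-32844401, *Lyn* (ENSMUSG00000042228) at chr4:3678115-3813122 and *Fgr* (ENSMUSG00000028874) at chr4:132701413-132729221, all on the plus strand. *Csk* (ENSMUSG00000032312) lies on the minus strand at chr9:57533929-57552936.

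Levels of different genes were compared per length, in FPKM (fragments mapped, scaled to transcript length and to library size). *Src* and *Csk*, the best known family member and the kinase that restrains it, had the highest levels, with medians over 24 libraries of 26.2 and 21.8 FPKM. *Frk* (8.22 FPKM) and *Lyn* (7.33 FPKM) followed, then *Ptk6* with 5.52 FPKM in the 12 wild type libraries. *Yes1* (3.10 FPKM) and *Fyn* (2.78 FPKM) were lower, *Fgr* stood at 0.813 FPKM, and *Srms* at 0.0638 FPKM was close to the limit of detection. Neighbours in the order of mean log2 levels were compared within libraries by a two-sided sign-flip permutation test, with p adjusted over 9 pairs, and 7 pairs differed. *Src* and *Csk* did not pass the permutation test (mean log2 difference 0.06, SD 0.40, adjusted p = 0.494, *Src* higher in 16 of 24 libraries). *Fyn* and *Yes1* did not pass it either (0.28, SD 1.02, adjusted p = 0.234), with *Fyn* higher in 10 of 24 libraries. *Csk* exceeded *Frk* in 24 of 24 libraries by a mean log2 difference of 1.3 (permutation test, adjusted p = 4.5e-05, from the smallest p that the draws gave, 2e-05). In wild type mice, *Ptk6* lay below *Lyn* in 9 of 12 libraries (log2 difference 0.36, permutation test, adjusted p = 0.0107) and above *Fyn* in 11 of 12 (0.93, adjusted p = 0.0107).

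**Figure D1:**
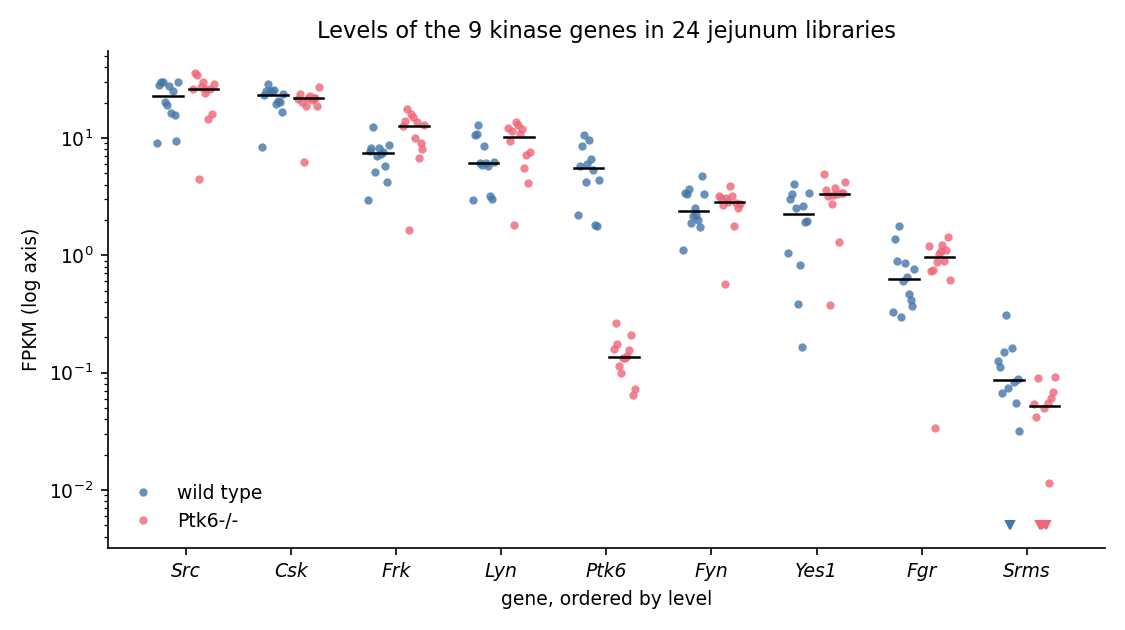
FPKM of the 9 kinase genes on a log axis, with 1 point per library, 12 wild type libraries in blue and 12 Ptk6-/- libraries in red, and black lines at the medians. Triangles at the foot mark the 4 libraries with no Srms count, and those of the knockout overlap in part. Ptk6 is the only gene whose wild type and Ptk6-/- points separate, and Src and Csk head the order in both genotypes.

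*Ptk6* itself, which checks the genotype labels, was lower in every *Ptk6*-/- library than in every wild type library. Among control males it stood at 23.6, 26.6 and 40.4 CPM in the wild type mice and at 0.679, 1.21 and 0.893 CPM in the *Ptk6*-/- mice. Control females had 48.8, 35.3 and 27.1 CPM in the wild type and 0.567, 0.659 and 0.953 CPM in the knockout. The 2 genotypes were far apart in both sexes, without overlap. After succinate, wild type males had 42.3, 21.8 and 30.2 CPM, and *Ptk6*-/- males 1.92, 0.512 and 0.665 CPM. Succinate-treated females had 9.48, 9.21 and 20.3 CPM in the wild type and 0.917, 0.316 and 0.305 CPM in the knockout. These groups did not overlap either, although the wild type females lay nearer to the knockout than the other wild type groups. The mean that remained in *Ptk6*-/- mice was 3.07% of the wild type mean in control males, 1.96% in control females, 3.28% in succinate males and 3.95% in succinate females. The 3.28% includes the 1.92 CPM of replicate 1, a library in doubt, which rests on 7 counts. The other *Ptk6*-/- succinate males had 0.512 and 0.665 CPM. In counts the remainder was 7 to 61 per knockout library, and the table is by gene, so it does not say which exons these reads cover.

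Genotypes were tested with edgeR's quasi-likelihood test, adjusted by Benjamini-Hochberg over all genes tested, and a gene was called at an adjusted p under 0.05 with a change of at least 2-fold. Over 24 mice 1 of the 9 kinases was called, *Ptk6*, which fell by 5.17 on the log2 scale (SE 0.27, adjusted p = 2.08e-10). Of all 21694 genes 4 were called (0.0184%; 50 by DESeq2), and the other 3 by edgeR, named here after their values were seen, were higher in the knockout: *Tat*, *B3galt5* and ENSMUSG00000120996. Without the 3 libraries in doubt these 3 were not called (adjusted p = 0.102, 0.0737 and 0.151), while *Ptk6* was (-5.36, adjusted p = 5.13e-09). *Ptk6* was also the 1 gene of 21694 (0.00461%) whose 12 knockout libraries did not overlap with its 12 wild type libraries.

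Within single groups of mice *Ptk6* was called in control males (log2 fold change -5.04, SE 0.29, adjusted p = 0.000518), and without replicate 1 of the wild type it stood at -5.15 (adjusted p = 0.000811). Of 19218 genes 142 were called there (0.739%), a count that moved with the method: 353 by DESeq2, 48 with an offset for transcript length, 5 with a replicate block, 2 of 13941 by limma on log2(FPKM + 1), and 1 of 21694, *Ptk6*, with all 24 libraries in 1 fit. In control females it was called with a log2 fold change of -5.64 (SE 0.36, adjusted p = 0.00632), beside *Pagr1a* and *Scgb1a1* as the other called genes of 19035 (0.0158%), both named after their values were seen, and DESeq2 called 259. *Scgb1a1* is a gene of the airway epithelium and is itself 1 of the 6 lung markers, so their sum is no separate evidence. These markers summed to 11.88 to 19.34 CPM in the knockout control females against 2.539 to 3.29 CPM in the wild type. For *Ptk6*, leaving out 1 control female at a time gave log2 fold changes of -5.855 to -5.399. The call of *Ptk6* was lost without replicate 2 of the wild type (adjusted p = 0.0629) or replicate 1 or 2 of the knockout (0.0844 and 0.071). In succinate males (-5.25, SE 0.60, adjusted p = 0.141) and succinate females (-4.65, SE 0.63, adjusted p = 0.779) the same drop did not pass edgeR's adjusted threshold. No gene of 18904 and of 19180 did in these 2 comparisons, with 2.72% and 4.52% of genes at an unadjusted p under 0.05. DESeq2 called *Ptk6* in both (adjusted p = 1.05e-13 and 3.16e-11) among 67 and 27 called genes, and so did edgeR with all 24 libraries in 1 fit (adjusted p = 0.000127 and 0.000277). Leaving out the 3 libraries in doubt changed no call of the 9 kinases over 24 mice.

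*Frk*, which encodes a relative of PTK6 also found in epithelia, had higher means in the *Ptk6*-/- mice. Control males had 45.1, 50.9 and 55.4 CPM in the wild type and 75.3, 90.4 and 125 CPM in the *Ptk6*-/- mice. Every knockout value lay above every wild type value, as for 16.5% of all genes in this comparison. The log2 fold change of 0.92 (SE 0.18, adjusted p = 0.0372) passed the adjusted p, as 4.23% of genes did, but not the 2-fold minimum. Without replicate 1 of the wild type control males, the library rich in ribosomal RNA, it was 0.88 (adjusted p = 0.0491). The knockout control males carried relatively more reads on long transcripts, with slopes of log2 CPM on log2 length of 0.0837 to 0.121 against -0.0592 to 0.00614 in the wild type. With the offset for this trend the change in *Frk* was 0.79 (adjusted p = 0.0826). Over all alternative settings the adjusted p lay between 8.19e-05 and 0.93, the latter with all 24 libraries in 1 fit. Leaving out 1 library at a time gave 0.71 to 1.07, with adjusted p-values of 0.117 and 0.0882 without replicate 2 or 3 of the wild type and of 0.0953 and 0.123 without replicate 2 or 3 of the knockout. Without replicate 1 of the knockout the change of 1.07 also passed the 2-fold minimum (adjusted p = 0.0238).

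In the other groups *Frk* overlapped between genotypes. Control females had 58.9, 55.1 and 55.1 CPM in the wild type and 60.7, 89.6 and 58.3 CPM in the knockout. Succinate males had 70.9, 37.7 and 50.4 CPM in the wild type and 37.3, 119 and 105 CPM in the knockout, the 37.3 CPM coming from the library with 29.71% ribosomal RNA. Succinate females had 42.8, 31.5 and 57.4 CPM against 55.6, 55.8 and 73.2 CPM. The knockout mean was the higher one in all 4 pairs of groups. Over 24 mice the log2 fold change was 0.61 (SE 0.17), which did not pass adjustment (adjusted p = 0.268; 0.156 without the 3 libraries in doubt). DESeq2 gave 0.63 with an adjusted p of 0.031, again under 2-fold, and the adjusted p lay between 0.031 and 0.565 over the alternative settings. An unadjusted p under 0.05 was reached by 13.4% of all genes in this comparison, and by 4 of the 9 kinases.

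*Srms*, the third member of the family and the neighbour of *Ptk6*, was barely counted. Wild type males had 12, 21 and 11 counts as controls and 24, 55 and 11 after succinate, and wild type females 0, 28 and 14, then 9, 10 and 4. *Ptk6*-/- males had 9, 7 and 15 counts, then 0, 0 and 8, and *Ptk6*-/- females 0, 9 and 2, then 11, 12 and 16. The counts overlapped over all mice, and only in succinate males did every knockout value lie below every wild type value, as for 5.88% of all genes there. Over 24 mice the log2 fold change was -1.43 (SE 0.61, adjusted p = 0.344), with a 95% interval of -2.71 to -0.15. With so few counts the size of a change is poorly resolved.

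Among the SRC family members, *Lyn* had the next smallest p for genotype. Its levels in control males were 34.6, 53.9 and 56.3 CPM in the wild type and 56.5, 47.1 and 63.1 CPM in the knockout. Succinate males had 57.1, 34.5 and 32.8 CPM and 31.8, 78.6 and 69.7 CPM, so the genotypes overlapped in males. Over 24 mice its log2 fold change was 0.38 (SE 0.17, adjusted p = 0.35). *Yes1* differed by 0.53 (SE 0.32, adjusted p = 0.458), *Fgr* by 0.30 (SE 0.26, adjusted p = 0.616), *Src* by 0.11 (SE 0.17, adjusted p = 0.801) and *Fyn* by -0.03 (SE 0.14, adjusted p = 0.954). None of them passed the test.

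*Csk* had the smallest standard error of the 9 kinases. It ranged from 87.1 to 134 CPM over all 24 libraries, and the knockout differed from the wild type by -0.11 on the log2 scale (SE 0.10, 95% interval -0.31 to 0.09, adjusted p = 0.601). In succinate males its 101, 98.7 and 108 CPM in the knockout lay below the 117, 132 and 129 CPM of the wild type without overlap, as for 5.88% of genes there (log2 fold change -0.26, SE 0.26, adjusted p = 1).

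*Yes1* varied widely among mice of some groups. Control males had 22.7, 28.5 and 32.1 CPM in the wild type and 42.4, 33.5 and 32.2 CPM in the knockout, which did not overlap, as for 16.5% of all genes that were higher there (log2 fold change 0.36, SE 0.16, adjusted p = 0.194). With the offset for transcript length this was 0.14, and without replicate 1 of the wild type 0.28. Wild type control females had 8.56, 1.84 and 27.2 CPM and *Ptk6*-/- control females 32.7, 31.3 and 16.1 CPM. Replicate 3 of the wild type succinate males, at 4.0 CPM, was far below the 32.7 and 26.4 CPM of its group. These low values came from 391, 85 and 166 counts, so counting error was small beside the spread. *Fgr* was higher in the knockout control females without overlap (4.94, 5.93 and 5.74 CPM against 4.55, 3.63 and 2.54 CPM), as for 8.51% of genes, and did not pass the test (adjusted p = 0.455). Beside it, 9 myeloid markers summed to 252.9 to 330 CPM against 184.2 to 265.1 CPM, which overlapped, and the lung markers were higher as given above. Their part in the *Fgr* values was not tested.

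**Figure D2:**
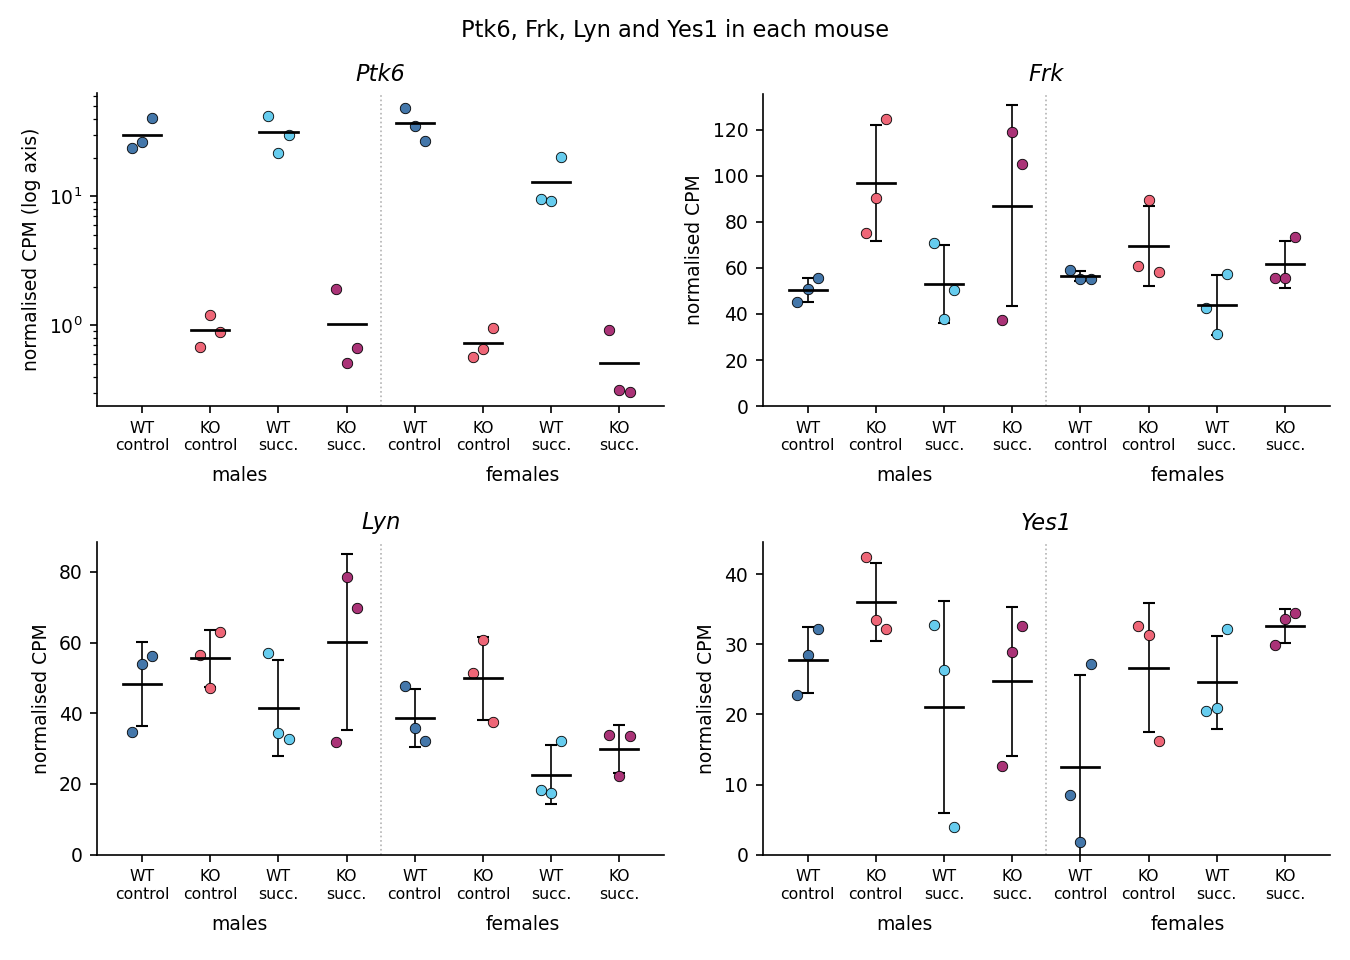
Normalised counts (CPM) of Ptk6 (log axis), Frk, Lyn and Yes1 in each of the 24 mice, males left and females right of the dotted line, with lines at the group means and bars of 1 SD (not drawn for Ptk6, cut at 0 for Yes1) over 3 mice. WT is wild type, KO is Ptk6-/- and succ. is succinate. Ptk6 in wild type succinate females (9.48, 9.21 and 20.3 CPM) lies below all other wild type mice, whose lowest value is 21.8 CPM.

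Succinate was compared with water next, and 0 of the 9 kinases were called by edgeR over 24 mice, where 158 of 21694 genes were called (0.728%; 337 by DESeq2 and 91 without the 3 libraries in doubt). At an unadjusted p under 0.05 there were 2 kinases, *Ptk6* and *Lyn*, with negative values for succinate, against 16.1% of all genes, and DESeq2 called 0 of the 9. *Ptk6* differed by -0.55 on the log2 scale (SE 0.23, adjusted p = 0.261) and *Lyn* by -0.40 (SE 0.17, adjusted p = 0.244). The others were *Src* at -0.23 (SE 0.17), *Fgr* at -0.25 (SE 0.26), *Frk* at -0.15 (SE 0.17), *Yes1* at 0.08 (SE 0.32), *Srms* at -0.04 (SE 0.61), *Fyn* at -0.02 (SE 0.14) and *Csk* at -0.01 (SE 0.10). For *Csk* the 95% interval ran from -0.21 to 0.19, so a change of 2-fold lies outside it.

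In wild type mice *Ptk6* separated by treatment in females and overlapped in males. The females' control values of 27.1 to 48.8 CPM and succinate values of 9.21 to 20.3 CPM did not overlap, whereas the males had 23.6 to 40.4 CPM as controls and 21.8 to 42.3 CPM after succinate. For females the log2 fold change was -1.49 (SE 0.40, 95% interval -2.41 to -0.58), and it did not pass edgeR's adjustment (adjusted p = 0.543). Of 18872 genes 0 were called by edgeR in this comparison (7.77% at an unadjusted p under 0.05; 87 of 21694 with all 24 libraries in 1 fit), and 7.31% were lower without overlap. DESeq2 called *Ptk6* here (adjusted p = 0.0488, among 258 called genes), and edgeR did when replicate 3 of the succinate females, the library with 17.85 CPM of lung markers, was left out (-1.94, adjusted p = 0.0314). Without replicate 2, the library with heart and Y-linked transcripts, the value was -1.29 (adjusted p = 1). Over the alternative settings the adjusted p lay between 0.0488 and 0.682. For males the log2 fold change was 0.05 (SE 0.30, 95% interval -0.64 to 0.75, adjusted p = 0.986).

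The difference between the female and the male response of wild type mice was tested over 12 libraries, a comparison chosen after these values were seen. For *Ptk6* it was -1.55 on the log2 scale (SE 0.52, 95% interval -2.68 to -0.41) and did not pass adjustment (adjusted p = 0.908), and 0 of 20415 genes were called there by edgeR and 6 by DESeq2, with 5.28% at an unadjusted p under 0.05. The sexes are therefore not shown to differ in this response. In *Ptk6*-/- females the residual *Ptk6* reads gave -0.53 (SE 0.62), on 16 to 51 counts per library.

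Several marker sums moved with the low *Ptk6* of the wild type succinate females. The 12 tuft cell markers summed to 496, 443 and 162 CPM there against 65.82 to 95.01 CPM in the female controls, and 6 mast cell markers to 150, 117 and 28.7 CPM against 22.0 to 27.4 CPM. Lower were the 8 epithelial markers (7791 to 13380 CPM against 15220 to 18590 CPM), without overlap. The 6 smooth muscle markers (3859 to 7649 CPM against 3225 to 4122 CPM) and the 8 T lymphocyte markers (37.3 to 68.3 CPM against 59.3 to 101 CPM) overlapped. In wild type males tuft markers went from 77.25 to 79.99 CPM in controls to 111 to 157 CPM after succinate, while epithelial markers overlapped (9598 to 16170 CPM against 12220 to 15780 CPM). The part of these markers in the *Ptk6* values was not tested. In whole tissue, fewer cells of a type and less RNA per cell cannot be told apart.

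*Lyn* had lower values after succinate in females of both genotypes. Wild type females went from 47.8, 35.8 and 32.3 CPM to 18.4, 17.4 and 32.1 CPM, and *Ptk6*-/- females from 51.5, 60.7 and 37.4 CPM to 33.9, 22.2 and 33.6 CPM. Neither pair overlapped, as for 7.31% and 10.1% of all genes that were lower, although in the wild type 32.3 and 32.1 CPM nearly touch. The log2 fold changes were -0.75 (SE 0.32, adjusted p = 0.638) and -0.76 (SE 0.29, adjusted p = 0.441). Of 19334 genes tested in *Ptk6*-/- females 17 were called by edgeR (0.0879%), 433 by DESeq2, 132 of 21694 with all 24 libraries in 1 fit and 0 with a replicate block, and in none of these fits was 1 of the 9 kinases called. Without replicate 2 of the *Ptk6*-/- succinate females, the library rich in mast cell markers, the value of *Lyn* was -0.59 (adjusted p = 0.951). In males the log2 values of *Lyn* were -0.22 (SE 0.28) in the wild type and 0.13 (SE 0.31) in the knockout. Over 24 mice the difference of the female and male responses was -0.70 (SE 0.33), which did not pass adjustment (adjusted p = 0.594). Tuft markers in *Ptk6*-/- females summed to 236 to 487 CPM after succinate against 62.5 to 77.5 CPM, and mast cell markers to 82.3, 845 and 114 CPM against 19.05 to 31.32 CPM. T lymphocyte markers were lower, at 41.2 to 48.2 CPM against 60.5 to 125 CPM. The epithelial (9331 to 11470 CPM against 10550 to 15350 CPM) and smooth muscle sums (3695 to 5150 CPM against 2057 to 4643 CPM) overlapped. The part of these markers in the *Lyn* values was not tested.

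None of the 9 kinases was called in succinate-treated wild type males (0 of 19183 genes called, 4.07% at an unadjusted p under 0.05) or *Ptk6*-/- males (0 of 18966, 7.75%) by edgeR, and DESeq2 called 47 and 39 genes there and no kinase of the 9. In *Ptk6*-/- females *Srms* was higher after succinate without overlap, on 11, 12 and 16 counts against 0, 9 and 2, as were 11.2% of all genes (log2 fold change 1.43, SE 1.08, adjusted p = 0.656).

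**Figure D3:**
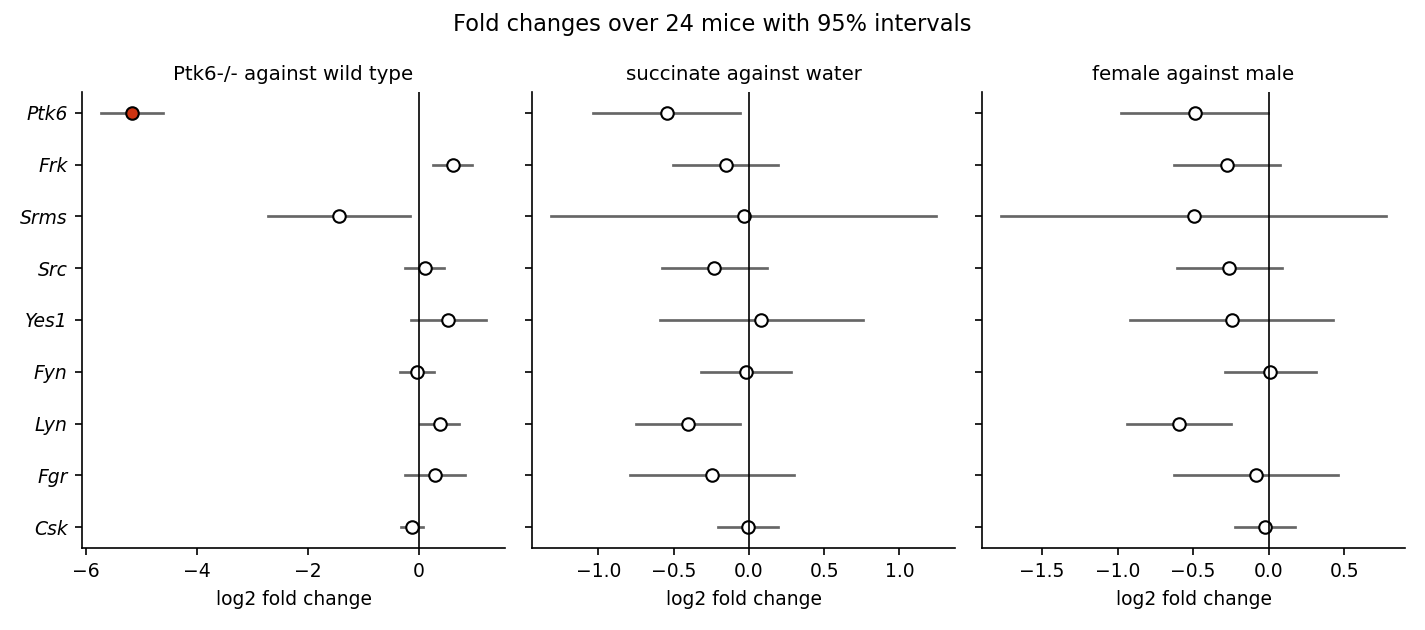
Log2 fold changes of the 9 kinases over 24 mice for knockout against wild type, succinate against water and female against male, with 95% intervals from edgeR and a filled point where the gene was called. The 3 panels have different horizontal scales. Ptk6 at -5.17 in the genotype panel is the only filled point, and Srms has the widest intervals.

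Between the sexes, 0 of the 9 kinases were called over 24 mice by edgeR or DESeq2, against 78 of 21694 genes by edgeR (0.36%) and 323 by DESeq2. *Lyn* had the smallest p, at -0.59 for females against males on the log2 scale (SE 0.17, adjusted p = 0.12), and 2 of the 9 kinases, *Lyn* and *Ptk6*, had an unadjusted p under 0.05, as did 15.3% of all genes. *Lyn* ranged from 31.8 to 78.6 CPM with a median of 55.1 in males and from 17.4 to 60.7 CPM with a median of 33.7 in females, so the sexes overlapped. DESeq2 gave an adjusted p of 0.0173 and the length offset 0.0327, both with a change under 2-fold, and the adjusted p ranged from 0.0173 to 0.505 over the settings. *Ptk6* differed by -0.49 (SE 0.23, adjusted p = 0.325), *Srms* by -0.50 (SE 0.61), *Frk* by -0.27 (SE 0.17), *Src* by -0.26 (SE 0.17) and *Yes1* by -0.25 (SE 0.32). *Fgr*, *Csk* and *Fyn* lay between -0.08 and 0.01.

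The interactions asked whether 1 factor changed the effect of another over 24 mice. No kinase of the 9 was called by edgeR or DESeq2 for genotype by succinate (0 of 21694 genes called by edgeR and 13 by DESeq2, 5.87% at an unadjusted p under 0.05), sex by succinate (16 called by edgeR, 0.0738%, and 207 by DESeq2, with 0 by edgeR without the 3 libraries in doubt) or sex by genotype (0 called by edgeR and 19 by DESeq2, 4.58% at an unadjusted p under 0.05). For genotype by succinate the 9 log2 values ran from -0.40 (*Yes1*, SE 0.65) to 0.36 (*Ptk6*, SE 0.47), with *Frk* at -0.02, *Csk* at -0.11 and *Lyn* at 0.18. For sex by succinate *Ptk6* stood at -0.91 (SE 0.47, adjusted p = 0.642), *Lyn* at -0.70 and *Yes1* at 1.10 (SE 0.65, adjusted p = 0.705). For sex by genotype *Frk* stood at -0.44 (SE 0.34, adjusted p = 1) and *Fgr* at 0.91 (SE 0.52, adjusted p = 1), so the larger *Frk* difference seen in males was not shown to differ between the sexes. The standard errors of 0.19 (*Csk*) to 1.23 (*Srms*) are the limit of what these interactions could show.

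Per length, *Ptk6* made up 40.9% to 54.1% of the summed FPKM of *Ptk6*, *Frk* and *Srms* in the wild type controls and the wild type succinate males. In wild type succinate females it made up 23.8%, 29.0% and 33.4%, below all 9 other wild type mice. In the knockout the share was 0.557% to 6.45%, the highest value being that of a library in doubt (the next was 2.26%), and *Frk* made up 93.6% to 99.4%. *Src* and *Csk* together held 55.7% to 70.8% of the summed FPKM of the 9 kinases over the 24 libraries, with a median of 62.6%. These shares are descriptions and were not tested.

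**Figure D4:**
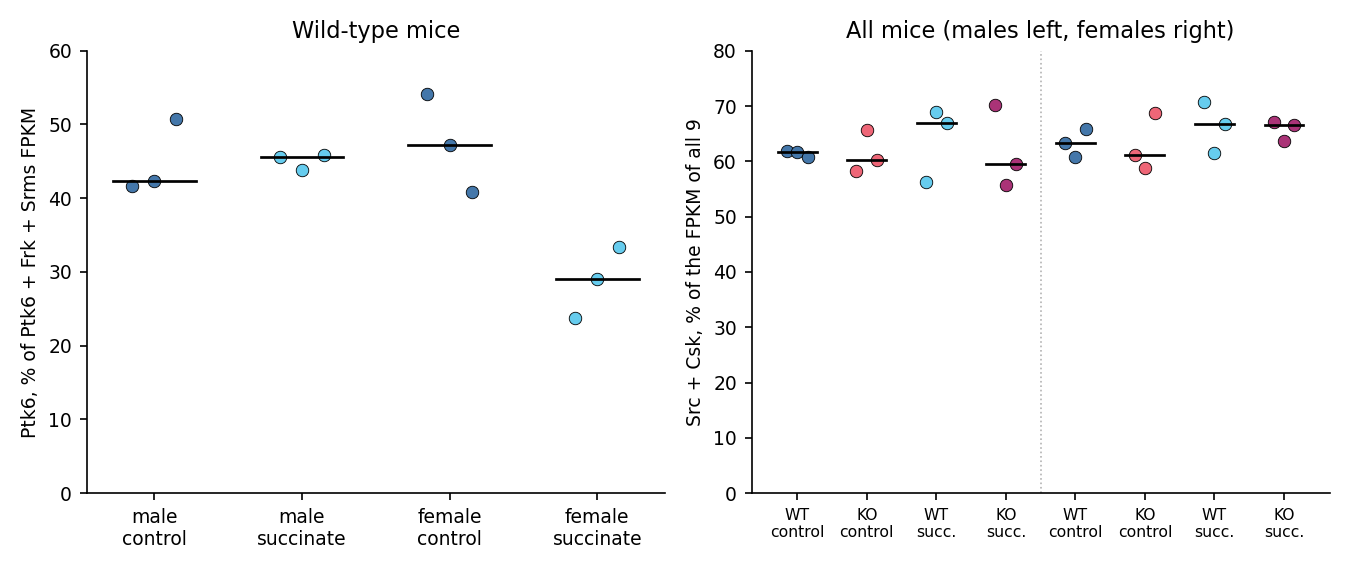
Left, the share of Ptk6 in the summed FPKM of Ptk6, Frk and Srms in the 12 wild type mice. Right, the share of Src and Csk in the summed FPKM of all 9 kinases in 24 mice, with lines at the medians of 3 mice. The wild type succinate females (23.8% to 33.4%) lie below the other wild type groups (40.9% to 54.1%), while the right panel stays between 55.7% and 70.8%.

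For each kinase the genes with the most similar pattern were found by Pearson correlation of log2 CPM, as a description without a test, since libraries of 1 group share treatment and composition. *Ptk6* was most like *Tmc5* (r = 0.948, Spearman's rho = 0.867), *Apaf1* (0.934), *Sbno2* (0.929), *Smpdl3b* (0.924) and *Gpr160* (0.923) over the 12 wild type libraries and 12808 genes. Of the other kinases *Lyn* followed it most closely (r = 0.899, rho = 0.811, and r = 0.846 without the 2 wild type libraries in doubt), then *Frk* (r = 0.792, and 0.663). Over 24 libraries *Frk* was most like *Nlrc4* (0.914), *Fgl2* (0.90) and *Wasl* (0.895). *Src* was most like *Arhgef16* (0.956), *Tuft1* (0.947) and *Cnnm4* (0.943), and *Lyn* was most like *Pik3ap1* (0.941), *Baiap2l1* (0.94) and *Zc3hav1* (0.934). *Fgr* was most like *Selplg* (0.843), *Itgax* (0.829) and *Itgb2* (0.818), genes of leukocyte adhesion. Without the 3 libraries in doubt these values for *Fgr* were 0.766, 0.732 and 0.627. *Yes1* was most like *Susd6* (0.89), *Washc5* (0.77) and *Plppr3* (0.744), and *Fyn* was most like *Plekhm2* (0.899), *Myzap* (0.858) and *Pde4dip* (0.837). *Fyn* was highest, at 29.3 CPM, in the library with heart muscle transcripts, and without the 3 libraries in doubt these 3 values for *Fyn* were 0.85, 0.746 and 0.698. *Csk* (*Nags* at 0.813, *Mthfd2l* and *Tmem86a*) and *Srms* (*Gtpbp3* at 0.631, *Anks3* and *Maip1*) had looser matches.

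Other genes of the pathway came from 3 lists written from general knowledge, with earlier results of these data known. Among the 23 other non-receptor tyrosine kinases, *Matk* and *Bmx* were called higher after succinate over 24 mice and 0 were called lower, while the list's median log2 change of -0.05 was close to that of all genes (-0.00245). *Matk*, which encodes the CSK-homologous kinase that phosphorylates the same inhibitory tyrosine, rose by 2.18 on the log2 scale (SE 0.30, adjusted p = 0.000423), from 3.30 to 8.17 CPM in the controls to 4.90 to 82.7 CPM after succinate. *Bmx*, a kinase of the TEC family, rose by 2.06 (SE 0.39, adjusted p = 0.00863), on at most 16.6 CPM. These changes are averages over the sexes and genotypes. Both were also called without the 3 libraries in doubt and by DESeq2, and *Bmx* did not reach 2-fold by limma on log2(FPKM + 1). In succinate-treated females *Matk* ranged from 12.49 to 82.7 CPM in the wild type and from 15.74 to 62.94 CPM in the knockout, against 6.945 to 19.27 CPM and 4.895 to 18.38 CPM in succinate-treated males, so the sexes overlapped. The 18.38 CPM came from the library with 29.71% ribosomal RNA, and the other *Ptk6*-/- succinate males had 4.895 and 6.719 CPM. *Bmx* ranged from 3.039 to 16.61 CPM in wild type and from 4.802 to 14.88 CPM in *Ptk6*-/- succinate females, and reached at most 3.449 CPM in succinate-treated males. In *Ptk6*-/- males its median was 1.156 CPM in controls and 0.7115 CPM after succinate, and in wild type males 0.7695 and 2.003 CPM. *Matk* medians were 3.42 and 6.719 CPM in *Ptk6*-/- males and 5.63 and 19.08 CPM in wild type males. For sex by succinate over 24 mice DESeq2 called *Bmx* (2.55, adjusted p = 0.0366), and edgeR called 0 of the 23 other kinases. The 6 succinate-treated females had the highest sums of tuft markers. Their mast cell markers summed to 28.74 to 149.5 CPM in the wild type and to 82.32 to 845.3 CPM in the knockout, against 13.99 to 35.86 CPM in succinate-treated males. The part of tuft and mast cells in these values was not tested.

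**Figure D5:**
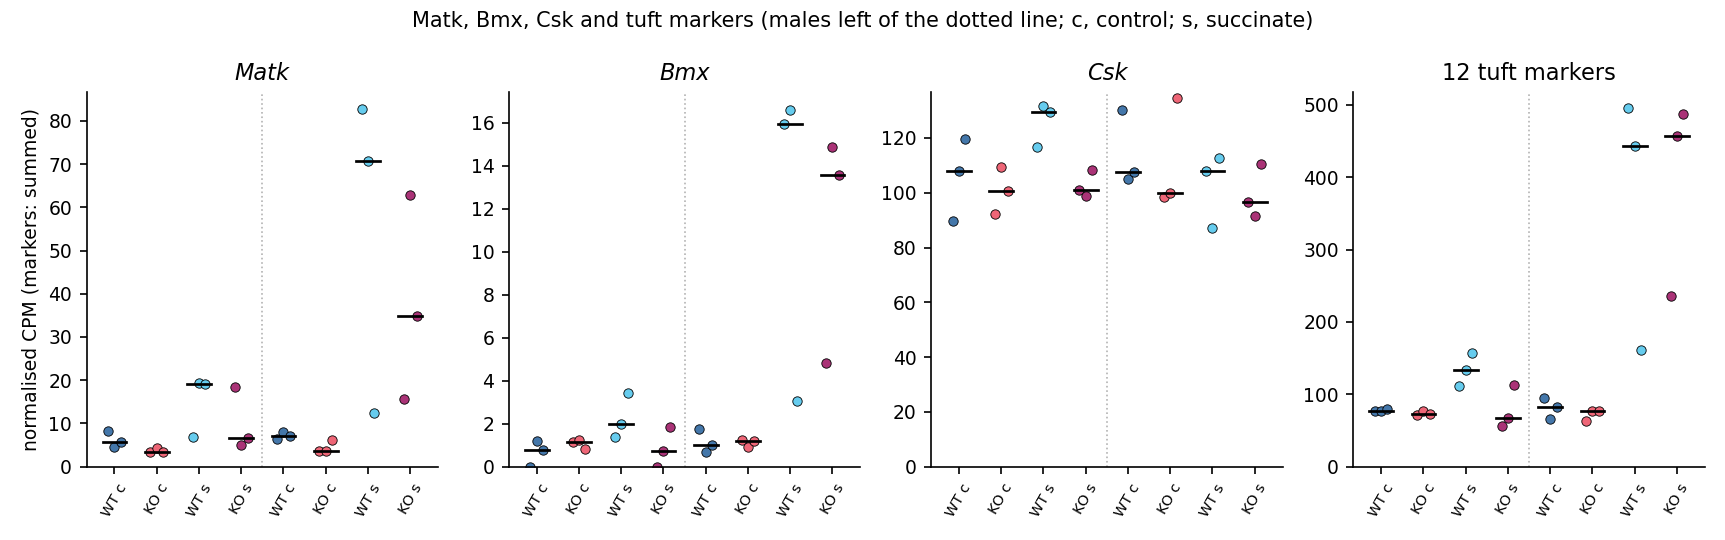
Normalised counts (CPM) of Matk, Bmx and Csk and the sum over 12 tuft markers in each mouse, with lines at the medians of 3 mice. WT is wild type, KO is Ptk6-/-, c is control and s is succinate. The group medians of Matk, Bmx and the marker sum are highest in the succinate-treated females, whereas Csk stays between 87.1 and 134 CPM.

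Of 24 substrates and partners of PTK6, 23 were tested in control males, where 1 was called higher in the knockout and 0 lower, against 0.739% of all genes called by the same test. This was *Egfr*, the receptor of epidermal growth factor, at 34.2, 37.1 and 43.3 CPM in the knockout and 16.4, 17.6 and 19.9 CPM in the wild type (log2 fold change 1.07, SE 0.14, adjusted p = 0.02). Without replicate 1 of the wild type it was 1.1 (adjusted p = 0.023), and DESeq2 called it too (1.08, adjusted p = 6.84e-09). The call was lost with the offset for transcript length (0.80, adjusted p = 0.056), with a replicate block (1.07, adjusted p = 0.0539), by limma (0.902, adjusted p = 0.652) and with all 24 libraries in 1 fit (1.09, adjusted p = 0.93). It was also lost without replicate 2 or 3 of the wild type (1.02 and 1.13, adjusted p = 0.0862 and 0.0827) and without replicate 2 or 3 of the knockout (1.1 and 0.982, adjusted p = 0.0838 and 0.118). *Irs2* (0.97), *Stat3* (0.75) and *Met* (0.68) passed the adjusted p under 2-fold, against 4.23% of all genes that passed it, as did *Jak1* (0.54) among the other kinases and *Ptpn12* (0.72), a tyrosine phosphatase, among 15 regulators of SRC. Without that library these 5 values lay between 0.51 (*Jak1*) and 0.9996 (*Irs2*), with adjusted p-values of 0.023 to 0.0409. None of the 5 passed the adjusted p with the offset for transcript length (0.33 for *Jak1* to 0.80 for *Irs2*, adjusted p = 0.056 to 0.129), with the block, by limma, with all 24 libraries in 1 fit, or without any 1 of the same 4 libraries. The medians of these 3 lists in control males were 0.323, 0.247 and 0.0664, against 0.0174 for all genes. Over 24 mice 0 genes of the 3 lists were called for genotype by edgeR or DESeq2, and 4 of the 24 substrates and partners, 3 of the 23 other kinases and 1 of the 15 regulators had an unadjusted p under 0.05, as did 13.4% of all genes.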

How the data were processed

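Per the labels and the study's methods, stranded poly(A) libraries were made from distal jejunum, 1 mouse per library. The authors trimmed reads with Cutadapt, aligned them with HISAT2 and assembled and quantified transcripts with StringTie and ballgown. The authors deposited a table of raw counts per gene and a table of FPKM values that repeats the counts. The program that made the counts is not given in the sources used here. The 9 genes and all lists were chosen with earlier results of these data known. Counts were tested with edgeR 4.0.16 (R 4.3.3, TMM, quasi-likelihood) on genes that reached 10 counts in 3 or more libraries, fitted over the libraries compared, with 14 comparisons planned and 1 added after the values were seen (sex by succinate in wild type mice). P-values were adjusted by Benjamini-Hochberg over all genes tested. FPKM levels were ordered on log2(FPKM + 0.01), with 100000 sign flips. Alternatives were DESeq2 1.42.0, its size factors, no filter, no fold minimum, a replicate block, limma 3.58.1 on log2(FPKM + 1), an offset for transcript length, 1 fit over 24 libraries, leaving out each library, and leaving out the 3 libraries in doubt. All 9 genes are named; of each list the genes called in a comparison are named, up to 5, and those under 2-fold in control males, and the alternative settings for these list genes, were added after their values were seen. The 5 (for *Ptk6*) or 3 genes of highest correlation are named, among genes with at least 10 counts in every library used. Scripts were tested on simulated data. A result of 1 listed gene is not reported here.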

Additional observations from a re-analysis of the deposited data

How the results depend on the processing

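*Ptk6* was called over 24 mice under all 8 alternative settings. Of the 9 kinases, 2 were called in control males without a fold minimum and 0 with limma on log2(FPKM + 1), where *Ptk6* stood at -2.31 (adjusted p = 0.138), a scale that understates changes of low values. In succinate males 1 was called by DESeq2, 1 without the filter and 1 with all 24 libraries in 1 fit. In succinate females 1 was called by DESeq2 and 1 in the 24-library fit, and for succinate in wild type females 1 by DESeq2. Each of these single calls was *Ptk6*. Leaving out 1 library gave 1 to 2 calls in control males, 0 to 1 in control females and 0 to 1 for succinate in wild type females. Of the FPKM order 4 of 9 pairs passed with the control libraries alone. Replicate numbers did not pair the samples: correlations of same-numbered deviations ran from -0.479 to 0.33. With a replicate block *Ptk6* was not called in control females (0 calls, -5.62, adjusted p = 0.0948), and *Frk* in control males had an adjusted p of 0.0565.

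Values near 0 changed sign, none of them called, and the cause was not tested. With DESeq2 these were *Fyn* (0.00082) and *Csk* (0.011) for succinate, *Fyn* (-0.0093) for sex and *Ptk6* (-0.0095) for sex by genotype. DESeq2 size factors gave *Csk* 0.012 for succinate and *Fyn* -0.0056 for sex. The block gave *Src* -0.0033 for sex by succinate and *Ptk6* -0.057 for sex by genotype. Limma gave *Fyn* 0.014 for genotype, *Fgr* 0.026 and *Csk* 0.16 for sex, *Src* -0.30, *Lyn* -0.24 and *Fgr* -0.069 for genotype by succinate, *Frk* 0.071 and *Fgr* 0.052 for sex by succinate, and *Src* 0.090 and *Fyn* 0.073 for sex by genotype. The length offset gave *Fyn* 0.040 and *Csk* 0.060 for succinate, *Fyn* -0.012 for sex, *Frk* 0.125 and *Csk* 0.011 for genotype by succinate, *Src* -0.039 for sex by succinate, and *Ptk6* -0.045 and *Lyn* -0.046 for sex by genotype. Without the 3 libraries in doubt *Fyn* was 0.087 for genotype, *Srms* 0.095 and *Csk* 0.0046 for succinate, *Fyn* -0.15 for sex, *Frk* 0.061 and *Fyn* 0.040 for genotype by succinate, and *Fyn* 0.068 and *Lyn* -0.097 for sex by genotype.

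Leaving out 1 library at a time turned the sign of further values. For sex the ranges were -0.072 to 0.0031 (*Csk*), -0.20 to 0.11 (*Fgr*), -0.092 to 0.084 (*Fyn*) and -0.88 to 0.72 (*Srms*). For succinate they were -0.029 to 0.030 (*Csk*), -0.12 to 0.055 (*Fyn*), -1.25 to 0.35 (*Srms*) and -0.045 to 0.40 (*Yes1*), and for genotype -0.10 to 0.074 (*Fyn*). For genotype by succinate they were -0.0073 to 0.57 (*Fgr*), -0.16 to 0.16 (*Frk*), -0.027 to 0.35 (*Src*) and -2.25 to 0.95 (*Srms*). For sex by succinate they were -0.27 to 0.31 (*Fgr*) and -0.19 to 0.18 (*Src*), and for sex by genotype -0.28 to 0.075 (*Fyn*), -0.14 to 0.18 (*Lyn*), -0.36 to 0.25 (*Ptk6*) and -0.37 to 0.0079 (*Src*). With 3 mice per group and 0 to 55 counts of *Srms* per library, small changes were not detectable.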
